A study of Homo sapiens with 20 samples.

Results

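Cells held in all-trans retinoic acid (ATRA) for 48 h were compared directly with cells held in it for 24 h, to describe the changes that came late and those that faded. The arrays were chosen by their treatment labels, 4 for ATRA 48 h and 4 for ATRA 24 h, which is 8 of the 20 arrays of the series. Arrays whose titles share a sample number were averaged, which left 3 samples at each time, 6 of 14 samples in all. The cells were Mel202, a human uveal melanoma line that carries the GNAQ changes Q209L and R210K and has wild-type BRAF, and was derived from a primary tumour that had recurred after irradiation. Every group shared these alleles. The series asks how retinoids regulate expression in such cells, and gave them 100 nM ATRA, 100 nM 9-cis retinoic acid (9-cis RA) or the ethanol vehicle (EtOH) for 24 or 48 h. The EtOH 48 h minus 24 h change, with 2 samples at each time, stands beside each ATRA change here as the measure of time in culture. The model is a single line grown in 6-well plates, and no label states that its samples are separate cultures. The p-values therefore reflect the spread among the samples measured, and that spread may be technical only.

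ATRA binds the retinoic acid receptors, which sit on DNA as dimers with the retinoid X receptors and recruit activators once the ligand is bound. Direct target genes include those for the CYP26 enzymes, which oxidise retinoic acid and so limit the signal, and for LRAT and DHRS3, which steer retinoids into storage. Retinoic acid slows growth and promotes differentiation in many cell types. The retinal pigment epithelium and the melanocytes of the eye both handle retinoids and make pigment.

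Values are normalized log2 intensities of the probe that stands for each gene, so that a difference of 1 is 2-fold. A sample is named by the replicate numbers of its arrays, and sample values are given in the order replicate 1-2, 3 and 4 for ATRA. Genes are said to have passed where limma gave an adjusted p under 0.05 (Benjamini-Hochberg) over 10673 genes. A probe was called detected on an array at a detection p under 0.01. The arrays formed 2 sets by the number of detected probes, 12 arrays with 15870 to 17128 and 8 with 12561 to 14301, and each ATRA group had 2 arrays in each set. Replicate 4 of both ATRA groups was measured in the second set alone and stood apart from the other ATRA samples on the second principal component (17.5% of the variance), at -15.4 for 48 h and -23.95 for 24 h, against 13.38 and 16.29 for the other ATRA 48 h samples and 6.18 and 8.37 for the other ATRA 24 h samples. The 9-cis RA 24 h samples also lay low on this component, at -16.62 for replicate 1, measured in the first set alone, and -17.94 for replicate 2-3. The 9-cis RA 48 h samples lay at 19.46 and 14.46. What this component reflects was not tested. The line's own markers were present: 7 of 8 melanocyte lineage markers were tested, all 7 were detected on all 4 arrays of both ATRA groups, and their summed signal was 64550 to 69208 at 48 h and 60671 to 61326 at 24 h.

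Between the times 112 genes passed in ATRA (1.05% of the genes tested), of which 73 were higher (0.684%) and 39 were lower (0.365%) at 48 h. A difference of 2-fold or more was reached by 20 of the higher and 6 of the lower genes. In all 112 the 3 samples at 48 h lay wholly on one side of the 3 samples at 24 h, as they did upward in 10.1% and downward in 9.03% of all genes. In bulk samples, a change in the share of a kind of cell and a change in RNA per cell cannot be told apart. In EtOH 3 genes passed between the times (0.0281%), CDH1 upward (0.00937%) and MGP and MYOT downward (0.0187%). Among the 73 genes that rose in ATRA the median difference was 0.83, beside 0.19 for the same genes in EtOH. Among the 39 that fell the medians were -0.82 in ATRA and -0.18 in EtOH. The EtOH change had the sign of the ATRA change in 58 of the 73 and 30 of the 39, and in 16 and 9 it was at least 0.5 times as large. The difference between the ATRA change and the EtOH change passed in 4 genes (0.0375%), CYP26B1, KCNJ13, MXD4 and DCN, all rising more in ATRA. In 9-cis RA 269 genes passed between the times (2.52%), 102 upward (0.956%) and 167 downward (1.56%), among them 29 of the 73 and 13 of the 39 with the sign they had in ATRA. Without either ATRA replicate 4 sample 26 genes passed between the times in ATRA, and 23 passed within the first array set and 0 within the second (675 at an unadjusted p under 0.05), while all 112 kept their sign in each of these fits.

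**Figure D1:**
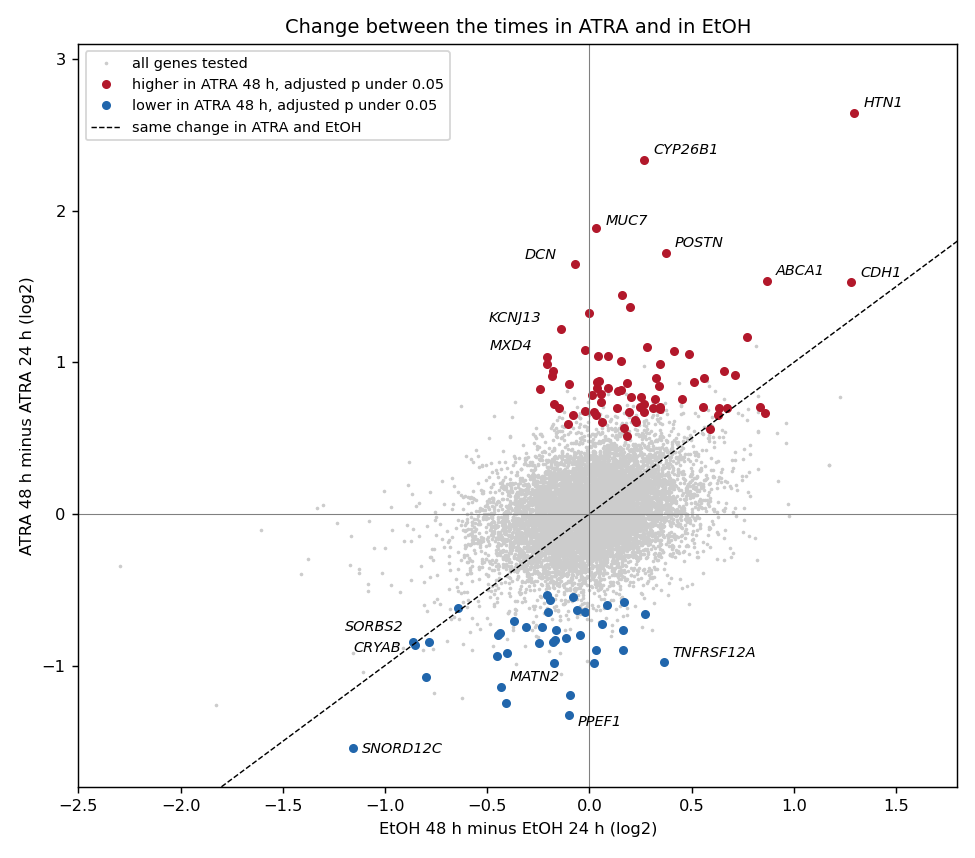
Each point is a gene, placed by its EtOH 48 h minus 24 h difference (horizontal, log2) and its ATRA 48 h minus 24 h difference (vertical, log2). The 73 red and 39 blue genes passed in ATRA. CDH1, CRYAB and SORBS2 lie near the dashed line of equal change, and CYP26B1, MUC7, DCN and KCNJ13 lie far above it.

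In the retinoid pathway CYP26B1 and ALDH1A2 rose, and no other gene of its 3 lists passed. CYP26B1, a retinoic acid hydroxylase, had 8.74, 8.84 and 8.89 in ATRA 48 h cells, against 6.63, 6.32 and 6.52 in ATRA 24 h cells. EtOH cells had 5.84 and 5.88 at 48 h and 5.44 and 5.74 at 24 h, with detection on 2 of 3 and 1 of 3 arrays. The ATRA groups were far apart, and the 24 h samples lay closer to EtOH than to ATRA 48 h. The difference was 2.34 ± 0.12 (SE), 5.05-fold, with a limma adjusted p of 8.16e-07. It exceeded the EtOH change of 0.27, which uses EtOH 24 h signals mostly below detection, by 2.07 ± 0.20 (adjusted p = 0.00101) and the 9-cis RA change of 0.56 by 1.78 (adjusted p = 0.00598), the 1 gene that passed against 9-cis RA (0.00937%). Within the array sets the ATRA difference of CYP26B1 was 2.38 and 2.18.

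CYP26A1, the other main retinoic acid hydroxylase, gave 11.25, 11.21 and 11.27 in ATRA 48 h cells and 11.00, 10.88 and 10.80 in ATRA 24 h cells. It was detected on no EtOH array, and was at least 46.7-fold above EtOH at 48 h and at least 36.9-fold at 24 h. The groups did not overlap, but the 48 h minus 24 h difference of 0.35 ± 0.11 did not pass (adjusted p = 0.165). Its 2 other detected probes disagreed, at 0.57 (unadjusted p = 0.00028) and -0.19. ALDH1A2, which makes retinoic acid from retinal, was at least 2.13-fold higher at 48 h than at 24 h (adjusted p = 0.000215), with 7.42, 7.48 and 7.34 in ATRA 48 h cells against 6.22, 6.28 and 6.22 in ATRA 24 h cells, where it was detected on 2 of 4 arrays. ALDH1A2 also had 6.10 and 5.92 in EtOH 48 h cells and 5.24 and 5.24 in EtOH 24 h cells, a difference of 0.77 that did not pass. Its other detected probe was dimmer and differed by 0.36 in ATRA and -0.07 in EtOH.

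Those 2 were the passing members of 14 tested genes for retinoid transport and metabolism, 0 of which fell, and the list's median was 0.16, against 0.01 for all genes. DHRS3, a retinal reductase, had 6.86, 6.80 and 6.93 at 48 h against 5.99, 6.31 and 6.33 at 24 h, at least 1.46-fold but not past the threshold (adjusted p = 0.0714). LRAT, which esterifies retinol, had 9.40, 9.22 and 8.62 at 48 h against 8.72, 8.55 and 8.14 at 24 h, and these overlapped. Of 10 receptors and coregulators 0 passed (limma), with 10 of 10 differences above 0 and a median of 0.21 (0.11 in EtOH). The receptor genes RARB, RARA and RXRA differed by 0.15, 0.28 and 0.22, and NRIP1, a corepressor induced by retinoids, by 0.20. The 2 other detected probes of RARB differed by -0.41 and 0.10. Of the 10 genes on the retinoic acid response list, CYP26B1 was the 1 that passed.

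Of 10 tested genes typical of the retinal pigment epithelium 2 rose. In the whole list 6 of the 10 differed above 0 and 4 below 0 (lowest -0.33). KCNJ13, a potassium channel of that epithelium, had 8.09, 8.07 and 8.16 in ATRA 48 h cells, against 6.68, 6.98 and 7.01 in ATRA 24 h cells. In EtOH it was detected on no array. The groups were separated by about 1 log2 unit, with a difference of 1.22 ± 0.12 (2.33-fold, adjusted p = 0.000245), and the excess over EtOH of 1.36 ± 0.19 (adjusted p = 0.0289) uses EtOH signals below detection. The 9-cis RA change of KCNJ13 was 1.58. MERTK, the receptor kinase with which that epithelium takes up photoreceptor debris, had 10.04, 10.21 and 10.40 at 48 h against 9.66, 9.59 and 9.69 at 24 h (0.57 ± 0.12, adjusted p = 0.0432, EtOH 0.17). MERTK did not pass without the replicate 4 samples (adjusted p = 0.174). The median of the list was 0.48, beside 0.13 in EtOH, and it was 0.12 with the authors' values, 0.17 without background correction and 0.29 within the first array set.

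Of 21 tested melanin and melanosome genes 1 passed. MLPH, which links melanosomes to the motor that carries them, was higher by 0.56 in ATRA (adjusted p = 0.045) beside 0.59 in EtOH, so that its change was as large in EtOH. TYR, the rate-limiting enzyme of melanin synthesis, had 13.09, 13.04 and 13.17 at 48 h against 12.72, 12.68 and 12.63 at 24 h (0.42, adjusted p = 0.138), and differed by 0.31 in EtOH. RAB27A, the melanosome GTPase, differed by 0.42 (adjusted p = 0.189). Its 2 other detected probes differed by -0.11 and 0.03 in ATRA, beside 0.23 and 0.55 in EtOH. MITF, the lineage's master regulator, and the melanosome matrix protein gene PMEL differed by 0.13 and 0.01. The list's median was 0.23 in ATRA and 0.10 in EtOH.

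Among the passing genes the largest rise was in HTN1, and several other large rises were in genes for secreted and membrane proteins. HTN1 encodes a salivary histatin. It had 12.28, 12.39 and 11.99 in ATRA 48 h cells, against 10.02, 9.49 and 9.21 in ATRA 24 h cells. EtOH cells had 8.51 and 7.41 at 48 h and 6.64 and 6.69 at 24 h. The ATRA groups did not overlap, the EtOH groups did not either, and the EtOH 48 h samples were more than 1 log2 unit apart. The difference of HTN1 was 2.65 ± 0.25 in ATRA (6.26-fold, adjusted p = 0.000215) and 1.30 in EtOH, and the excess of 1.35 ± 0.39 did not pass (adjusted p = 0.93). MUC7, a salivary mucin gene, had 9.94, 10.33 and 9.34 in ATRA 48 h cells against 8.32, 8.24 and 7.39 in ATRA 24 h cells, a difference of 1.88 ± 0.26 (adjusted p = 0.00405). MUC7 was detected on no EtOH array. Of 3 tested salivary and phosphoprotein genes these 2 rose. SPP1, the osteopontin gene and the other member, had 13.44, 13.30 and 13.24 at 48 h against 13.00, 12.65 and 12.66 at 24 h (0.56, adjusted p = 0.0617).

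SLC26A4, the anion exchanger pendrin, had 8.65, 8.69 and 8.95 at 48 h against 7.29, 7.18 and 7.73 at 24 h in ATRA (1.37 ± 0.15, adjusted p = 0.000376). EGFL8, which encodes a secreted protein with EGF-like domains, gave 8.51, 8.53 and 8.53 at 48 h against 7.61, 7.65 and 7.06 at 24 h (1.08 ± 0.16, adjusted p = 0.0053). Both genes were detected on all 8 ATRA arrays and on no EtOH array. KIAA1217 rose by 1.08 (EtOH 0.41). ST6GALNAC3, a sialyltransferase, had 7.99, 8.16 and 8.64 at 48 h against 6.74, 6.42 and 7.30 at 24 h (1.44 ± 0.20, adjusted p = 0.00497, EtOH 0.16). Replicate 4 was the highest sample of this gene at both times.

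**Figure D2:**
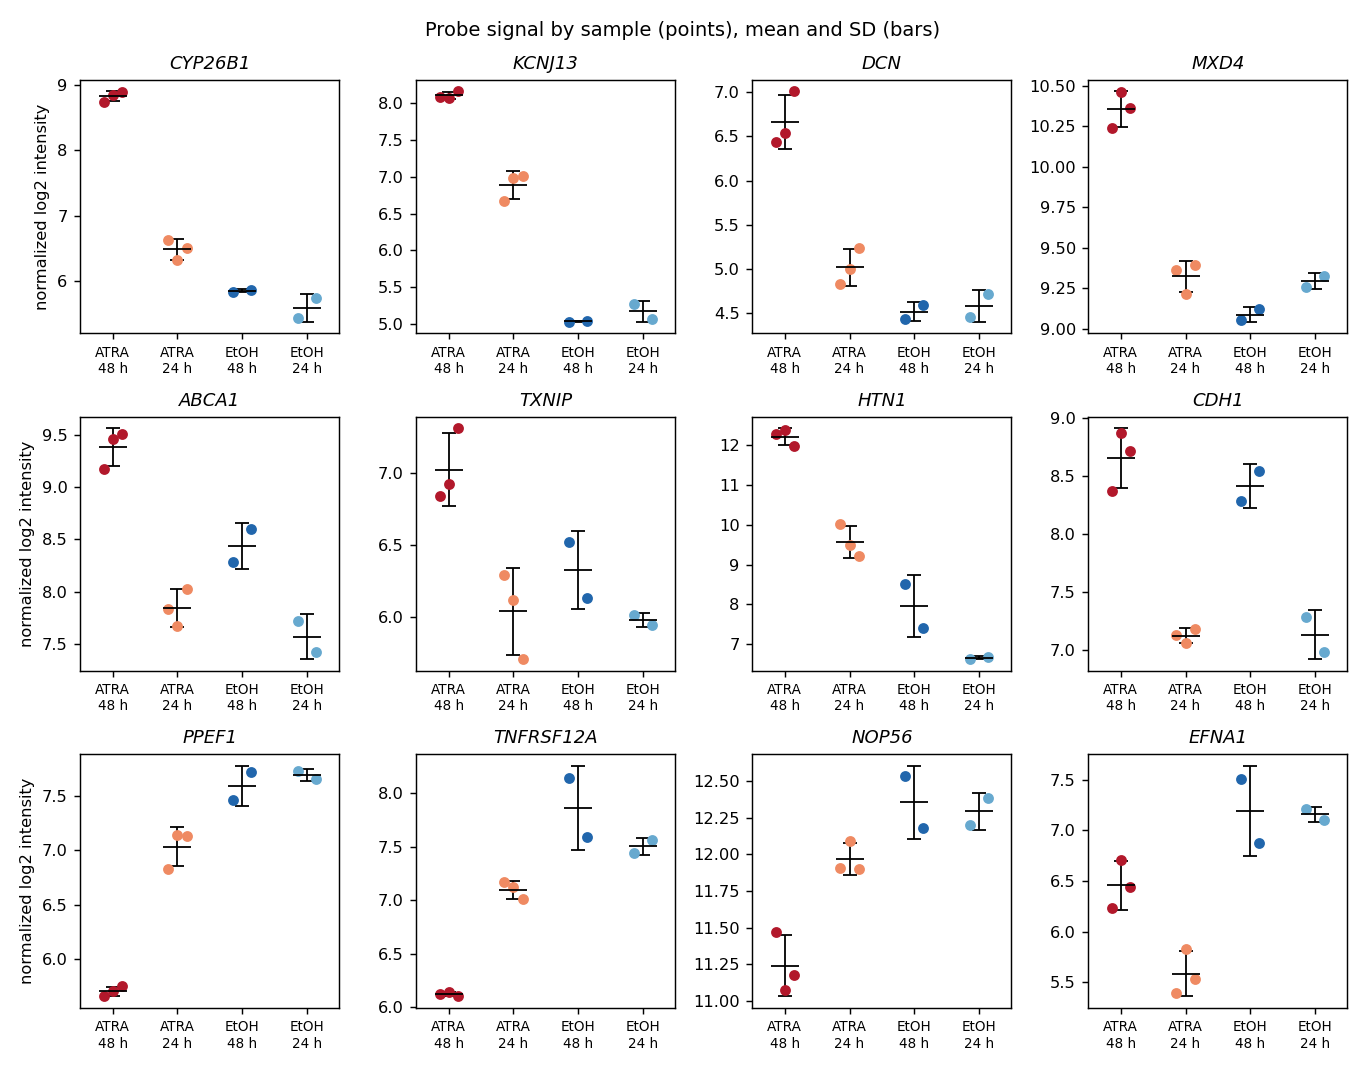
Points are samples, bars are the group mean ± SD (n = 3 for ATRA, n = 2 for EtOH), and the vertical axes give normalized log2 intensity and do not start at 0. CYP26B1, KCNJ13, DCN and MXD4 are higher in ATRA 48 h than in the other 3 groups drawn (9-cis RA is not drawn), CDH1 is higher at 48 h in both ATRA and EtOH, and EFNA1 is below EtOH at both times.

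Genes of 3 classes were told apart by their standing against EtOH, from which 1856 genes differed at 48 h (17.4%, with 8.61% higher and 8.78% lower) and 614 at 24 h (5.75%, with 3.29% higher and 2.46% lower). These comparisons share the ATRA samples with the 48 h against 24 h comparison, so the classes are a sorting of the 112 genes and no second test. Late genes passed against EtOH at 48 h with the same sign and had an unadjusted p over 0.05 at 24 h: 18 rose and 10 fell. Building genes passed at 24 h in the same direction: 28 rose and 12 fell. Fading genes passed at 24 h in the opposite direction: 3 rose and 0 fell. The other 24 rising and 17 falling genes met no class. The same genes' EtOH 48 h minus 24 h differences had medians of 0.15 for late and 0.23 for building genes that rose, and of -0.13 and -0.27 for those that fell.

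**Figure D3:**
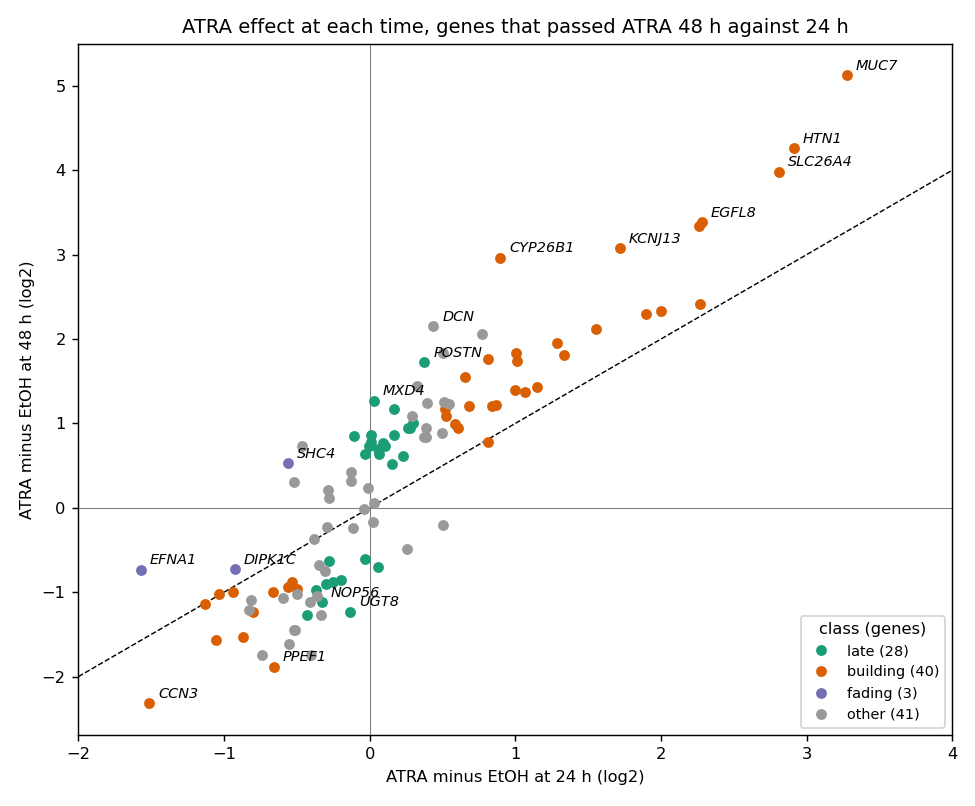
The 112 genes that passed between ATRA 48 h and 24 h are placed by the ATRA minus EtOH difference at 24 h (horizontal, log2) and at 48 h (vertical, log2), coloured by class (signals below detection are plotted as measured), with the line of equal effect dashed. The 28 late genes lie near 0 at 24 h, and the 3 fading genes lie left of 0 and above the line. Most of the 40 building genes lie further from 0 at 48 h than at 24 h. MLPH (0.81 at 24 h and 0.78 at 48 h) and SORBS2 (-1.04 and -1.02) do not, and CRYAB (-1.13 and -1.14) hardly moves.

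Late genes that rose included MXD4, ABCA1, TXNIP, HBP1 and POSTN. MXD4, which encodes a partner of MAX that represses the DNA sites that MYC activates, had 10.24, 10.46 and 10.36 in ATRA 48 h cells, against 9.36, 9.21 and 9.40 in ATRA 24 h cells. EtOH cells had 9.06 and 9.12 at 48 h and 9.26 and 9.33 at 24 h. The ATRA 24 h samples differed in mean from the EtOH 24 h samples by 0.03, and all 3 ATRA 48 h samples lay above every other sample of the 4 groups. The difference was 1.03 ± 0.11 (2.05-fold, adjusted p = 0.000376), which exceeded the EtOH change of -0.21 by 1.24 ± 0.18 (adjusted p = 0.0289). ABCA1, the cholesterol exporter, had 9.18, 9.47 and 9.51 in ATRA 48 h cells against 7.83, 7.67 and 8.03 in ATRA 24 h cells (1.54 ± 0.16, 2.91-fold, adjusted p = 0.000247). ABCA1 also had 8.28 and 8.60 in EtOH 48 h cells and 7.72 and 7.42 in EtOH 24 h cells, a difference of 0.87 (adjusted p = 0.323), and the excess in ATRA did not pass (unadjusted p = 0.0169).

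ABCA1 and MYLIP, a ubiquitin ligase for lipoprotein receptors, were the 2 of 11 tested targets of the liver X receptors that rose, with a list median of 0.32 in ATRA and 0.22 in EtOH. That order turned with the authors' values (0.15 in ATRA and 0.18 in EtOH) and with no filter on dim probes (0.18 and 0.22). SCD, a fatty acid desaturase and another target, differed by 0.45 and did not pass, and ABCG1, a cholesterol exporter, was near or below detection at both times. TXNIP, a thioredoxin inhibitor induced by glucose through MondoA, had 6.84, 6.92 and 7.31 at 48 h against 6.29, 6.11 and 5.70 at 24 h and was at least 1.66-fold higher (adjusted p = 0.0191, EtOH difference 0.35). Its difference was 0.62 within the first array set, 1.14 within the second, and 0.68 without the replicate 4 samples, where it did not pass (adjusted p = 0.116). HBP1, a transcriptional repressor linked to cell cycle exit, rose by 0.68 (EtOH -0.02) and FBXO32, the ubiquitin ligase atrogin-1, by 0.77 (EtOH 0.20). These 3 were the passing members of 14 tested genes on a mixed list named for glucose and MondoA sensing. The list's median was 0.41 in ATRA and 0.06 in EtOH. Of the 3 only TXNIP is tied to MondoA above, so the list is no measure of glucose sensing. Without the replicate 4 samples, and within the first array set, 0 of the 14 passed, and the ATRA median was 0.13 with the authors' values and 0.15 without background correction. FOXO3, a growth-restraining transcription factor also on the list, differed by 0.56 without passing (adjusted p = 0.134).

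Of the matrix genes 2 of 26 tested rose, and both were below detection on most arrays at 24 h. DCN, the small proteoglycan decorin, had 6.43, 6.54 and 7.01 in ATRA 48 h cells, where all 4 arrays detected it, against 4.82, 4.99 and 5.23 in ATRA 24 h cells, where none did. No EtOH array detected it, so its fold is a bound: DCN was at least 1.68-fold higher at 48 h (adjusted p = 0.000245). The fitted difference of 1.65 ± 0.16, which uses signals below detection, exceeded the EtOH change by 1.72 ± 0.26 (adjusted p = 0.0411), and the 9-cis RA change was 1.70. POSTN, the matrix protein periostin, was at least 1.81-fold higher (adjusted p = 0.000463), with 6.56, 7.04 and 6.78 at 48 h against 5.33, 5.12 and 4.76 at 24 h, where 1 of 4 arrays detected it. P3H2, which hydroxylates collagen prolines, was at least 2.08-fold higher (adjusted p = 0.000376), at 7.31, 7.27 and 7.44 against 5.91, 6.26 and 5.87. EtOH cells had 5.58 and 5.44 at 48 h and 5.69 and 5.34 at 24 h for P3H2.

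DCN and POSTN are also fibroblast markers. Of 10 fibroblast markers 3 were tested. The third, LUM, the proteoglycan lumican, was detected on every array, with 10.83, 10.81 and 10.54 at 48 h against 10.03, 10.04 and 9.74 at 24 h (0.79, adjusted p = 0.0512). The summed signal of the 3 was 1733 to 2019 in ATRA 48 h cells and 919 to 1117 in ATRA 24 h cells. COL1A1, a defining fibroblast gene, was detected on 0 of 20 arrays, and 6 markers have no probe in the annotation used here. The part of other cells in these rises was not tested.

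On the probes used, the 3 fading genes were below EtOH at 24 h and less so, or above it, at 48 h. EFNA1, the membrane ligand ephrin-A1, had 6.23, 6.71 and 6.44 in ATRA 48 h cells, against 5.39, 5.83 and 5.54 in ATRA 24 h cells, where 1 of 4 arrays detected it. EtOH cells had 7.51 and 6.88 at 48 h and 7.21 and 7.10 at 24 h. EFNA1 was at least 1.36-fold higher at 48 h in ATRA (adjusted p = 0.041), with an ATRA minus EtOH difference of -0.73 at 48 h, and was at least 2.20-fold below EtOH at 24 h. SHC4, an adaptor of receptor tyrosine kinases, had 7.76, 7.89 and 7.83 at 48 h against 6.77, 6.91 and 7.08 at 24 h (0.91 ± 0.12, adjusted p = 0.00255). Its ATRA minus EtOH difference was 0.53 at 48 h and -0.56 at 24 h, and it differed by -0.18 in EtOH (adjusted p of the excess = 0.0717). DIPK1C, a member of a family of secretory-pathway kinase-like proteins, rose by 0.91 in ATRA (adjusted p = 0.017), beside 0.71 in EtOH, and the excess of 0.20 had an unadjusted p of 0.431. The other detected probe of DIPK1C had an ATRA minus EtOH difference of -0.81 at 48 h and -0.60 at 24 h, so it did not fade. Without the replicate 4 samples EFNA1 and DIPK1C differed by 0.86 and 0.92 and did not pass (adjusted p = 0.184 and 0.109). At an unadjusted p under 0.05 (limma), 1449 of all 10673 genes differed between the ATRA times in either direction. Of the 263 genes that were lower than EtOH at 24 h (2.46%), 17 were higher and 80 lower at 48 h at that p. Of the 351 genes that were higher than EtOH at 24 h (3.29%), 10 were lower and 128 higher at 48 h at that p. Of these 351, 0 passed as lower at 48 h in limma. Under the other settings 0 to 9 passed.

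Genes for making ribosomes were among those that fell. Of 32 tested genes of the MYC network and ribosome biogenesis 26 differed below 0, beside 5171 of all 10673 genes. The list's median was -0.32 in ATRA and -0.09 in EtOH, against 0.01 for all genes in ATRA. MXD4 rose, NOP56 and SRM fell, and the other 29 did not pass. Without the replicate 4 samples, and within the first array set, 0 of the list passed as lower (NOP56 adjusted p = 0.14 without replicate 4). NOP56, a core protein of the C/D box small nucleolar particles that methylate ribosomal RNA, had 11.47, 11.07 and 11.17 in ATRA 48 h cells, against 11.90, 12.09 and 11.90 in ATRA 24 h cells. EtOH cells had 12.53 and 12.18 at 48 h and 12.20 and 12.38 at 24 h. All ATRA 48 h samples of NOP56 lay below all others, and the difference of -0.73 ± 0.14 was 1.65-fold (adjusted p = 0.029), while its 2 other detected probes differed by -0.43 and -0.35.

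SRM, spermidine synthase, had 8.91, 8.80 and 8.70 at 48 h against 9.34, 9.41 and 9.34 at 24 h (-0.57 ± 0.12, adjusted p = 0.0455, EtOH -0.19). Outside the list, RRP1, which processes ribosomal RNA, fell by 0.90 on the log2 scale (EtOH 0.03). Among genes picked out after their values were seen, POLR1E, a subunit of RNA polymerase I, fell by 0.54 (EtOH -0.21), POLR3G, a subunit of RNA polymerase III, by 0.64 (EtOH -0.06), and RCC1, the Ran exchange factor, by 0.60 (EtOH 0.09). MYC itself had 11.23, 11.27 and 11.37 at 48 h against 11.38, 11.43 and 11.55 at 24 h, a difference of -0.16 that did not pass (adjusted p = 0.85). Of 42 ribosomal protein genes on the list 0 passed (limma), with a median of -0.01. RPL29, which is not on that list, fell by 0.65 (EtOH -0.02) with a detected second probe at -0.64.

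MXD4 and SRM rose and fell in the same samples, and MYC with MAX and MXD4 with MAX bind the same DNA word, CACGTG. Their promoter windows, which are 300 bases long and span the start of each gene, both hold it, and they are shown for that reason. They are from RefSeq on GRCh38.p14, written 5′ to 3′ on the gene's strand, with CACGTG in capitals. MXD4 lies on the minus strand at chr4:2262060-2262359 with the word's first base at -238 from the start, and SRM on the minus strand at chr1:11059969-11060268 with the word at -199.
MXD4: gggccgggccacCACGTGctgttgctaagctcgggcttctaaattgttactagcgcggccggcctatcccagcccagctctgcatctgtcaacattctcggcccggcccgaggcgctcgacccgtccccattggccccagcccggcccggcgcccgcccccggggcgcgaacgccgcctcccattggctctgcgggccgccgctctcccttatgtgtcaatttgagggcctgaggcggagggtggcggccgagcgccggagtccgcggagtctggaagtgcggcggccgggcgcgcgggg
SRM: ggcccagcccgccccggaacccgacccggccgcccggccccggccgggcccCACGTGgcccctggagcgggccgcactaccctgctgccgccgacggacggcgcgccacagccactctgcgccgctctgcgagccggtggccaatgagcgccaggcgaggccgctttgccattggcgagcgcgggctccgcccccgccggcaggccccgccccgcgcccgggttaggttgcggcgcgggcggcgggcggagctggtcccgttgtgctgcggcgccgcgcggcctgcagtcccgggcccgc
The word reads the same on both strands. It was found in 10 of the 26 promoter windows that matched the 32 tested genes of the MYC network and ribosome biogenesis (38.5%). It was in 10.8% of the windows of all genes tested and in 7.43% of all 27305 windows. The list was made of genes tied to MYC, so its share is no result of these data. Of its 10 genes with the word only MXD4 and SRM passed, and whether MXD4 acts on any of them was not tested. Among the passing genes the word was in 8 of 61 windows of those that rose (13.1%), ABCA1 among them. GAGE12B, GAGE12C and GAGE12H were also among the 8, and these near-identical copies cannot be counted as separate genes. The word was in 2 of 20 windows of those that fell, SRM and UGT8. The retinoic acid response elements known as DR5 and DR2 (2 direct repeats with a spacer of 5 or 2 bases) were in 0 of these 61 and 0 of these 20 windows, and in 0.0806% and 0.0439% of all windows. These counts describe letters only, and the motifs and the windows shown were chosen after the values were seen.

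The probes of small nucleolar and Cajal body RNAs, a group also chosen after its values were seen, were mostly lower at 48 h. These RNAs guide the chemical modification of ribosomal and spliceosomal RNA and mostly lie in introns of host genes. Of 114 tested 103 differed below 0, 9 passed as lower and 0 as higher, with a median of -0.47 in ATRA and -0.16 in EtOH. Of all 10673 genes 5171 differed below 0 in ATRA, and 0.365% passed as lower. Within the second array set the medians were -0.46 in ATRA and -0.44 in EtOH. Relative to the mean of all samples, the median member stood at 0.67 and 0.17 in the EtOH 48 h samples and at 0.63 and 0.62 in the EtOH 24 h samples, so the EtOH change came from 1 of its 2 samples at 48 h, replicate 2-3. Against EtOH the median was -0.86 at 48 h and -0.58 at 24 h. SNORD16 had 7.64, 7.60 and 7.43 in ATRA 48 h cells against 8.23, 8.60 and 8.33 in ATRA 24 h cells, with 8.56 and 8.27 in EtOH 48 h cells and 8.56 and 8.62 in EtOH 24 h cells (-0.83 ± 0.13, adjusted p = 0.0103). SNORD36A had 8.73, 8.61 and 8.91 at 48 h against 9.29, 9.54 and 9.71 at 24 h (-0.77 ± 0.15, adjusted p = 0.0303, EtOH 0.16).

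SNORA6 fell by 1.24 (EtOH -0.41), SNORD96A by 0.98 (EtOH 0.02) and SNORD68 by 0.92 (EtOH -0.40). SNORD12C, the gene with the lowest ATRA difference, was at least 2.54-fold lower, but its EtOH difference of -1.16 was nearly as large. On the probes used, RPS2, ZFAS1, RPL4, RPL7A, RPL3 and RPL13, hosts of 6 of the passing RNAs, differed by 0.12, 0.10, -0.12, -0.33, -0.09 and less than 0.01, and RCC1, host of SNORA73A, passed at -0.60. The other detected probe of RPL13, host of SNORD68, differed by -0.63 in ATRA (unadjusted p = 0.00261) and -0.08 in EtOH, so its probes disagree. Over 67 tested hosts the median was -0.07. Per the labels the RNA was copied from an oligo(dT) primer, which reads polyadenylated RNA, and these RNAs have no poly(A) tail when mature, so which transcripts gave the signals was not tested. With the authors' own normalized values the median was -0.14 and 103 of 114 lay below 0. Without the replicate 4 samples the median was -0.41, 104 lay below 0 and 0 passed.

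**Figure D4:**
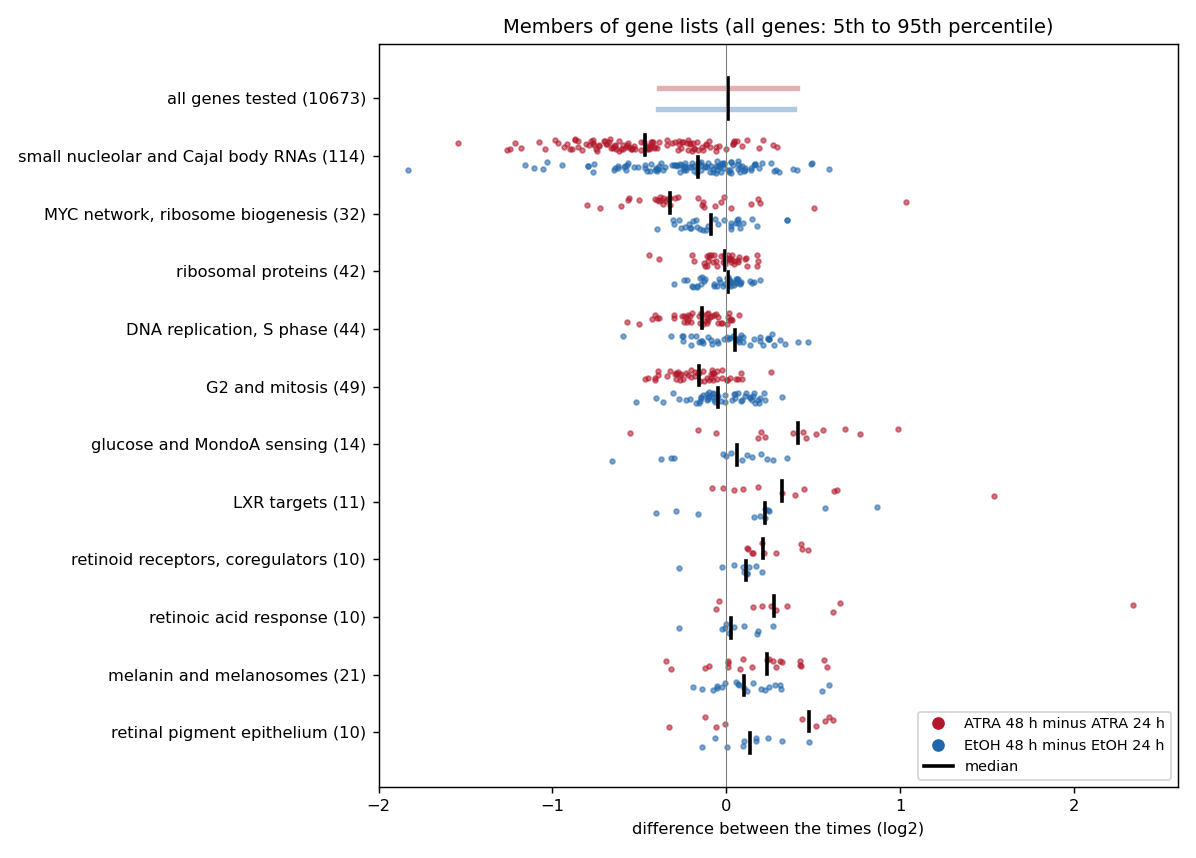
Each point is a member of a gene list (number of members in brackets), placed by its ATRA 48 h minus 24 h (red) or EtOH 48 h minus 24 h (blue) log2 difference, with the median as a black bar and, for all genes, the 5th to 95th percentile as a band. The small nucleolar RNAs have medians of -0.47 in ATRA and -0.16 in EtOH (-0.46 and -0.44 within the second array set), the MYC network -0.32 and -0.09, and the ribosomal proteins lie near 0 in both.

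Proliferation genes did not pass. Of 44 DNA replication and S phase genes and 49 G2 and mitosis genes 0 passed in either list (limma), although 37 and 41 differed below 0. The medians were -0.14 and -0.16 in ATRA, beside 0.05 and -0.05 in EtOH. At an unadjusted p under 0.05 (limma) 6 and 9 genes differed, beside 1449 of all 10673 genes tested. Of all genes tested 5171 differed below 0. CCND1 and CDKN1A, which push and hold the G1 to S step, differed by -0.02 and 0.13.

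The other clear falls were in signalling and matrix genes. PPEF1, a calcium-regulated protein phosphatase, had 5.66, 5.71 and 5.75 in ATRA 48 h cells, where 2 of 4 arrays detected it, against 6.83, 7.14 and 7.13 in ATRA 24 h cells. EtOH cells had 7.46 and 7.72 at 48 h and 7.73 and 7.65 at 24 h. PPEF1 was at least 2.21-fold lower at 48 h in ATRA (adjusted p = 0.000215), and the ATRA 48 h, ATRA 24 h and EtOH samples did not overlap. TNFRSF12A, the receptor of the cytokine TWEAK, had 6.13, 6.14 and 6.10 at 48 h against 7.17, 7.12 and 7.01 at 24 h (-0.98 ± 0.14, adjusted p = 0.00537), while in EtOH it differed by 0.36. The gap of -1.34 ± 0.23 between these changes did not pass (adjusted p = 0.0713).

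MATN2, a matrix adaptor protein, had 9.01, 9.29 and 9.25 at 48 h against 10.23, 10.30 and 10.44 at 24 h (-1.14 ± 0.12, adjusted p = 0.000359, EtOH -0.43). CCN3, a secreted matricellular regulator, had 6.09, 6.33 and 6.02 at 48 h against 6.82, 7.22 and 7.34 at 24 h (-0.98 ± 0.18, adjusted p = 0.0211, EtOH -0.18), and its ATRA minus EtOH difference was -2.32 at 48 h and -1.51 at 24 h. FABP5, a carrier that brings retinoic acid and fatty acids to nuclear receptors, had 10.57, 10.42 and 10.29 at 48 h against 11.32, 11.38 and 11.12 at 24 h (-0.85 ± 0.13, adjusted p = 0.0098, EtOH -0.18). UGT8, which makes galactosylceramide, was at least 2.16-fold lower (adjusted p = 0.041, EtOH difference -0.10). SLC30A1, the zinc exporter induced by zinc, fell by 0.71 (EtOH -0.37), the 1 passing member of 5 tested metallothionein and zinc response genes, all 5 of which differed below 0 (median -0.53, EtOH -0.23). Within the second array set the medians of these 5 were -0.52 in ATRA and -0.61 in EtOH, and the median member stood at 0.75 and -0.01 in the EtOH 48 h samples, relative to the mean of all samples.

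Several passing genes moved as much in EtOH, so that time in ATRA and time in culture gave differences of like size. CDH1, the epithelial adhesion molecule E-cadherin, had 8.37, 8.87 and 8.72 in ATRA 48 h cells against 7.13, 7.06 and 7.19 in ATRA 24 h cells (1.53 ± 0.15, adjusted p = 0.000215). EtOH cells had 8.28 and 8.55 at 48 h and 7.29 and 6.99 at 24 h (1.28, adjusted p = 0.0245), and the excess of 0.25 had an unadjusted p of 0.3. Of 10 epithelial markers 3 were tested. CLDN4 and ESRP1 differed by 0.03 and -0.36 and did not pass, with detection on 1 and 2 of 4 ATRA 48 h arrays. The summed signal of the 3 was 445 to 579 in ATRA 48 h cells and 254 to 283 in ATRA 24 h cells. CDH1 was the only one of the 3 that passed, so the sum shows no general rise of epithelial markers. The small heat shock protein gene CRYAB fell by 0.87 in ATRA, beside a difference of -0.85 in EtOH, ANXA1 (annexin A1) by 0.84 beside -0.78, and SORBS2, an adaptor of the actin skeleton, was at least 1.51-fold lower beside -0.86. Genes picked out after their values were seen, BCAN, a brain proteoglycan of the matrix, and GAGE12B, GAGE12C and GAGE12H, cancer-testis antigens, rose by 0.65 to 0.70 in ATRA, beside differences of 0.63 to 0.86 in EtOH. The GAGE genes are near-identical copies, and their probes cannot be counted as separate genes.

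MGP and MYOT did not pass in ATRA and fell in EtOH. MGP, an inhibitor of calcification, had 12.29, 12.44 and 12.42 in ATRA 48 h cells and 12.36, 12.42 and 12.24 in ATRA 24 h cells, which overlap (0.04, adjusted p = 0.949). EtOH cells had 9.60 and 9.08 at 48 h and 10.64 and 10.72 at 24 h (-1.34, adjusted p = 0.0201). The difference between these changes, 1.38 ± 0.23, had an adjusted p of 0.0689. MYOT, a muscle actin-binding protein gene, was detected on no array of either ATRA group or of EtOH 48 h, and on all 3 EtOH 24 h arrays.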

How the data were processed

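RNA from 20 arrays of Mel202 cells was measured on Illumina BeadChips. The deposited file holds a probe intensity, not normalized, and a detection p-value for each array, per the file headers. The authors' own normalized table holds log2 values made with lumi (version not given in the sources used here), per the submitters' processing notes, and served as an alternative. Intensities were corrected and quantile normalized with neqc of limma 3.58.1 in R 4.3.3 (offset 16). Of 47323 probes, 18269 were kept, those detected (detection p below 0.01) by 3 or more arrays. Those without a single gene in the probe annotation used here (4075) were left out, and each of 10673 genes was read from 1 probe. That annotation gave 1 gene for 16545 probes, so a gene without a listed probe may still have one on the array. Arrays with the same title number were averaged to 14 samples. A linear model with 6 group means (8 residual degrees of freedom) was fitted to all samples, with Benjamini-Hochberg adjustment over all genes. The columns not used numbered 0. A probe detected on 2 or fewer of 4 arrays (1 or fewer of 3) of a group gave only a bound there. In simulated data on 10673 genes for ATRA 48 h against 24 h, 38.8% of 1.5-fold, 74.6% of 2-fold and 98.5% of 4-fold changes were recovered, and 8 of 149 calls were false. The simulated noise was independent for each gene and sample. It held no array sets and no shift of replicate 4, so these shares may not hold for the data. The number of arrays limits the precision.

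Genes named with values were drawn from the 15 highest and 15 lowest passing differences with separate samples and the passing genes of each other comparison. They were also drawn from the late and fading genes with the largest differences and from fixed genes of the gene lists. Not every gene that met these rules is named, DDIT4 and TCEA2 among those left out. Others are said to be chosen after their values were seen. The members and lists were chosen with earlier results of these data known. Alternatives changed the background correction, normalization, probe filter, probe choice, samples in the fit and array set. Figures were drawn with matplotlib 3.10.9 in Python 3.11.15.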

Additional observations from a re-analysis of the deposited data

Results flagged for a closer look

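In 4 genes the 48 h minus 24 h change in ATRA differed from that in EtOH by the test of the difference itself (limma). The ATRA change exceeded the EtOH change by 2.07 in CYP26B1, 1.36 in KCNJ13, 1.24 in MXD4 and 1.72 in DCN on the log2 scale. Apart from the fits that left out 1 sample, CYP26B1 passed this test in 12 of 13 alternatives. The other genes were less stable: MXD4 passed in 9 of 14, KCNJ13 in 8 of 13 and DCN in 7 of 13. MXD4 was detected on every array of these groups. The excess of the other 3 uses signals below detection, since KCNJ13 and DCN were detected on 0 EtOH arrays, DCN also on 0 ATRA 24 h arrays, and CYP26B1 on 1 of 3 EtOH 24 h arrays. All 3 ATRA 48 h samples lay above all 3 ATRA 24 h samples in each. CYP26B1 also exceeded its 9-cis RA change, by 1.78.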

How the results depend on the processing

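All 112 genes kept their sign under each alternative that tested them, but their number past the threshold moved. It was 219 without background correction, 56 with equal array medians, 214 with the authors' values, 18 with only the ATRA groups in the fit, 451 with 20 arrays as independent, 242 with array set as a term, 23 and 0 within the first and second array set (675 at an unadjusted p under 0.05 in limma), 473 with array weights, 26 without both replicate 4 samples and 360 with those samples as a term, chosen after seeing the data. Leaving out 1 sample gave 33 (without ATRA 24 h replicate 3) to 275 (without either EtOH 48 h sample), and each of the 14 samples moved the count by over 1.5 times. The EtOH count of 3 became 7, 5, 0, 43, 7, 0, 0, 0 and 1 without background correction, with the authors' values, its own groups, 20 arrays, the set term, the first set, the second set, array weights and without both replicate 4 samples; the counts of 0 had 321, 834, 562 and 277 genes at an unadjusted p under 0.05. Leaving out 1 sample gave 0 to 366, the highest without EtOH 48 h replicate 2-3. The excess over EtOH, in 4 genes, became 1 with equal medians, detection on every array, own groups or array weights, 23 with 20 arrays, 11 with the set term, 0 in the second set (439 at an unadjusted p under 0.05) and 13 with replicate 4 as a term, and 1 to 75 leaving out 1 sample, the highest without EtOH 48 h replicate 2-3. The excess over 9-cis RA, in 1 gene, became 0 with equal medians (891 at an unadjusted p under 0.05), 0 with detection on every array, where CYP26B1 was not tested (1111), 4 in the first set, 0 in the second (271), 2 with array weights, 4 without both replicate 4 samples, 126 with replicate 4 as a term, and 0 to 1 leaving out 1 sample. The cause was not tested. Of 50 passing genes followed singly, 14 passed in every setting that tested them other than the second set alone, and 0 reversed. These 14 were followed for ATRA 48 h against 24 h, not for the excess over EtOH. Of the 14, ABCA1, CDH1, HTN1, MATN2 and MXD4 were tested in every setting. The rest were not tested under detection on every array. No paired analysis was possible because same-numbered arrays of different groups are not stated to share a culture or day. A signal near background gives only a bound.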
